A study of Macaca fascicularis with 132 samples.

Results

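The genes described here are those whose RNA was lower with interleukin-15 (IL-15) than without it at every one of 5 times in cultured blood cells of cynomolgus macaques (Macaca fascicularis). They number 67 of the 10811 genes that reached a mean of at least 5 CPM (counts scaled to the library total) in any control group. The gene table has 38550 rows, 31327 of them with at least 1 count. Members were chosen by the measured response itself. Counts of the 3 libraries of an animal and group were summed, scaled to CPM and taken as log2(CPM + 1). A gene is a member if the mean over 4 animals was lower by at least 0.3 with IL-15 than in control at each of 2, 6, 12, 24 and 48 h. The difference between IL-15 and control is therefore given below as a description and supports nothing, while the response in an animal left out of the choice and the comparison of the sexes were not used by it. The level at 0 h entered only through the level minimum, which a gene could also meet in a later control group.

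Peripheral blood mononuclear cells (PBMCs), the lymphocytes and monocytes of the blood, were kept ex vivo with IL-15 bound to its receptor alpha chain (IL-15/IL-15Ra, 40 ng/ml) for 2, 6, 12, 24 or 48 h. Control cultures without it were taken at 0, 2, 6, 12, 24 and 48 h. Each of the 11 groups holds 3 numbered libraries from each of 4 animals, the females 38142 and 38155 and the males 38147 and 38157. All cells were of the same 4 animals, and ages are not given in the labels. The design text of the series speaks of 6 animals, of which the other animals are not analysed here. The control at 0 h stands for the cells before culture.

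IL-15 signals through the beta chain of the IL-2 receptor and the common gamma chain, which activate JAK kinases, STAT5 and the PI3K pathway. The alpha chain binds the cytokine and presents it, often on a neighbouring cell, to cells that carry the other chains. In blood it is known above all for keeping natural killer cells and memory CD8 T cells alive and for making them divide. In bulk RNA fewer cells of a type and less RNA per cell cannot be told apart. The files carry Ensembl-style IDs with no symbols, and 0 of the IDs matched a symbol in the annotation table used here, so the PBMC label was not checked against marker genes and members are described by their levels, time courses and ranks. 2 members are named by ID.

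Library totals ran from 16423972 to 87944372 counts with a median of 27185130, and the 44 sums of 3 libraries from 54376963 to 126025607. The lowest count of any member in any sum was 13. By their distance to the other libraries of the same animal and group, 3 libraries stood apart, 1 of animal 38142 in control at 48 h, 1 of animal 38147 with IL-15 at 24 h and 1 of animal 38157 in control at 2 h. Without them the rule found 68 genes, 57 of them members. No count of members called below moved by over 1.5 times without them. By unexplained tokens in the column names, the libraries fall into 6 sets of 1 to 49 libraries. Within a set, and paired by animal, the share of members below 0 with IL-15 was at least 94.03% at 2 h (2 sets). It was at least 95.5% at 6 h (3 sets), 100% at 12 and 24 h, and at least 97.01% at 48 h. Of all genes past the level minimum, 44.5% to 68.8% were below 0. The same libraries chose the members, so these shares are largely fixed by the choice and do not test the sets. At 6 and 24 h each set held pairs from 1 animal only.

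The difference between IL-15 and control was smallest at 2 h and widest at 12 and 24 h. The median difference over the members, IL-15 minus control in log2(CPM + 1), was -0.36, -0.69, -0.91, -0.88 and -0.72 in time order (2, 6, 12, 24 and 48 h), against 0.02, -0.03, -0.15, -0.14 and -0.07 over all genes past the level minimum. As a ratio of CPM + 1, the median difference amounts to 0.777 of control at 2 h and 0.531 of it at 12 h. For members of low level the added 1 draws this ratio towards 1. No member was at or below a difference of -1 at 2 h, while 10, 28, 25 and 17 were at the 4 later times. The widest difference fell at 12 h for 28 members, and for 8, 15 and 16 at 6, 24 and 48 h. For 56 of the 67 the narrowest one was at 2 h.

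The threshold at 2 h decided most of the membership. The members just inside it had their weakest difference at -0.302, -0.303 and -0.305, and the genes just outside at -0.2995, -0.298 and -0.297, all at 2 h. Only 1.52% of genes past the level minimum were at or below -0.3 at 2 h, against 10%, 32%, 33.2% and 26.9% at the later times. A further 674 genes reached the threshold at 4 of the 5 times, and 646 of these missed it at 2 h alone. For most of the genes that came close, membership thus turned on the difference at 2 h.

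Most members were lower with IL-15 in every animal. The rule used the means of these same 4 animals, so this is largely fixed by the choice. At single times 63 to 67 members were below 0 in all 4 animals, against 12.8% to 44.9% of all genes past the level minimum. Per animal the median difference at 12 h was -0.86 in 38142, -0.78 in 38147, -1.10 in 38155 and -0.85 in 38157. The animals' medians averaged -0.39 ± 0.02 at the first time (SD over the 4 animals), then -0.69 ± 0.14, -0.90 ± 0.14, -0.93 ± 0.10 and, at the last, -0.76 ± 0.18. Of the 67 members, 61 were below 0 in all 20 differences of 4 animals at 5 times, 4 in 19 of them, 1 in 18 and 1 in 17. The member with 17 was lower with IL-15 by 1.52 at 24 h but at 48 h had -0.34 in 38142, -2.33 in 38147, 0.95 in 38155 and 0.24 in 38157, so that its place rests there on animal 38147.

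**Figure D1:**
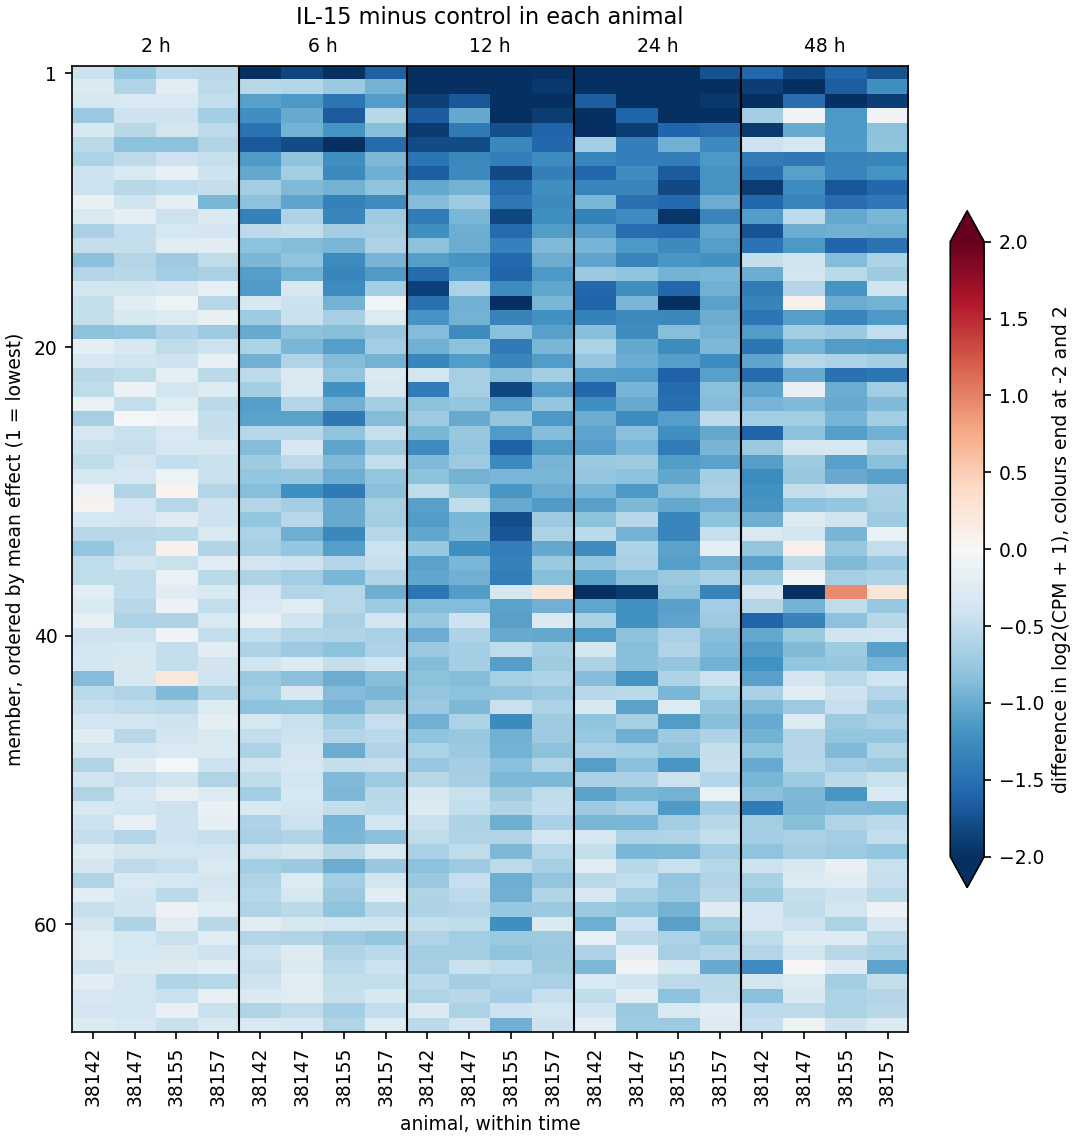
Each row is 1 of the 67 members, ordered by its mean difference, and each column 1 animal at 1 time. Colour gives IL-15 minus control in log2(CPM + 1), blue where IL-15 is lower. The columns at 2 h are palest, with a median of -0.36, and 61 rows are blue throughout.

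In the fit across all genes, where log2 fold changes are scaled by TMM (a factor that aligns libraries on the bulk of their genes), members called lower with IL-15 than in control numbered 34, 55, 63, 64 and 56 in time order (quasi-likelihood test of edgeR on 4 animals, with an adjusted p under 0.05). Among all 18197 genes tested the shares called lower were 0.495%, 3.54%, 14%, 19% and 20% at these times. The rule used this contrast, so nothing is read from these counts. The count at 2 h was 13 without animal 38142, 14 without 38147, 17 without 38155 and 11 without 38157. At all 5 times 30 members were called, against 0.203% of all genes, and 13, 12, 14 and 10 without 38142, 38147, 38155 and 38157. With TMM scaling in place of CPM the members' median differences were -0.40, -0.68, -0.74, -0.72 and -0.60, because CPM placed the median of all genes at -0.15 at 12 h and TMM at 0.02. On that scale 67, 67, 66, 64 and 61 of the members were still at or below -0.3 at 2, 6, 12, 24 and 48 h.

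Before culture the members were not an abundant or a rare class. Their median was 22.5 CPM at 0 h, with a range of 0.978 to 1834 CPM, against a median of 28.5 CPM over all genes past the level minimum. Levels over 100 CPM were found for 12 members, or 17.9%, against 19.1% of those genes. Under 5 CPM were 9 members, which passed the level minimum only through a later control group. Such a member had to be higher in control culture than at 0 h, so these 9 give no support to a rise in culture. Levels differed between the animals more than between libraries. The median SD over 4 animals was 0.33 in log2(CPM + 1) for members and 0.22 for all genes past the minimum, while the median SD over the 3 libraries of 1 animal was 0.12 for both. Across the 67 members the mean difference with IL-15 had a Spearman rho of 0.18 with the level at 0 h, a description over genes that share the same libraries.

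The members' summed level was lowest in the late cultures with IL-15. Their summed level at 0 h was 6890 ± 1195 CPM (SD, n = 4 animals). After 2 h it was 6025 ± 1026 CPM with IL-15 and 8013 ± 1564 CPM in control. At 24 h it was 1767 ± 191 CPM with IL-15 and 3622 ± 463 CPM in control, and at 48 h 1761 ± 154 CPM with IL-15 and 3005 ± 264 CPM in control. Most of the loss against 0 h lay in the 3 members with the highest level before culture, which summed to 4305 ± 1294 CPM at 0 h and, at 24 h, to 136 ± 69.7 CPM with IL-15 and 789 ± 471 CPM in control. The other 64 members summed to 2585 ± 232 CPM at 0 h and, at 24 h, to 1631 ± 208 CPM with IL-15 and 2832 ± 425 CPM in control. Without those 3, the sum in control at 24 h was thus not below that at 0 h in plain CPM. Plain CPM placed the median of all genes past the level minimum in control at 24 h at 0.33 against 0 h, and TMM at 0.01. The sums were not rescaled, so no rise or hold of the 64 against 0 h is read from them.

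The next question was how each culture stood against the cells before culture, a comparison that the rule did not make although the 0 h level counted towards its minimum. Changes against 0 h are given with TMM scaling, since plain CPM placed the median of all genes past the level minimum in control culture at 0.20 (6 h) and 0.33 (24 and 48 h), and TMM at 0.04, 0.01 and 0.04. All these comparisons share the 0 h sums, and they share the later IL-15 or control sums with the rule. Choosing genes for a low IL-15 minus control difference favours low IL-15 sums and high control sums.

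From 6 h on, most members lay below their starting level in cultures with IL-15. Called lower with IL-15 than at 0 h were 24 members at 2 h and 45, 48, 47 and 48 members at the later times (edgeR, adjusted p under 0.05, n = 4 animals). As shares, 35.8% of members were called at 2 h and 67.2% at 6 h, against 29% and 25.9% of all genes tested. At 12, 24 and 48 h the shares of members were 71.6%, 70.1% and 71.6%, against 27.5%, 28.3% and 30.4% of all genes. Called higher were 22, 7, 9, 7 and 9 members at the 5 times, with 25%, 27%, 29.6%, 32.5% and 34.1% of all genes. The count of 9 at 48 h was 5 without animal 38142. At all 5 times 17 members were called lower and 3 higher, against 8.53% and 12.7% of all genes tested, and 13 were lower at no time, against 48.8%.

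In control culture members were called in both directions. At 2 h 36 were higher and 12 lower than at 0 h, or 53.7% and 17.9% of the members, against 24.5% and 28.4% of all genes tested. At 6 h 21 were higher and 20 lower, with 25.5% of all genes in either direction, and at 12 h 24 and 22, with 26.4% and 24.9%. At 24 h 23 were higher and 28 lower, with 30.1% and 25.4% of all genes, and at 48 h 25 and 30, with 32.8% and 26.9%. From 6 to 12 h the share of members in each direction was thus within 10 percentage points of the share of all genes, and the calls lower at 24 h (41.8%) and 48 h (44.8%) lay further above it. The members' median fitted change in control culture was 0.47 at 2 h and between -0.06 and 0.01 from 6 to 48 h. With IL-15 it was 0.06 at 2 h, then -0.78, -0.80, -0.88 and -0.86, against medians of -0.13 to 0.05 over all genes.

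**Figure D2:**
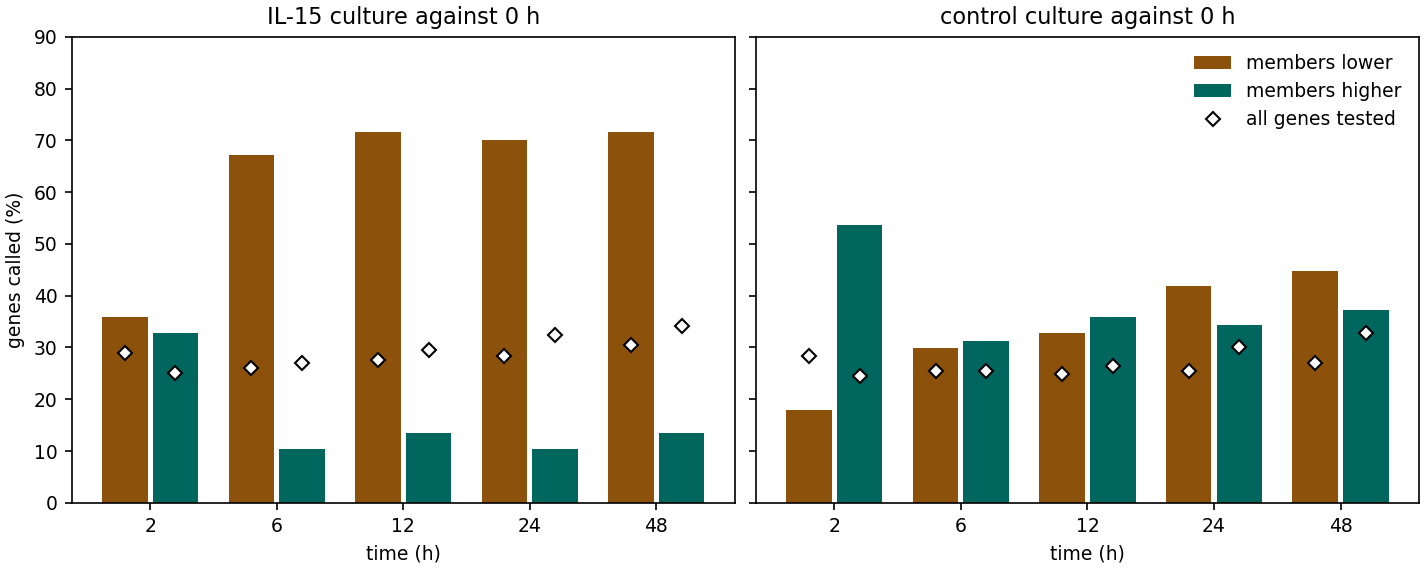
Bars give the percentage of the 67 members called lower or higher than at 0 h at each time, with IL-15 on the left and in control culture on the right (edgeR, adjusted p under 0.05). Diamonds give the same percentage of all 18197 genes tested. With IL-15, 67.2% to 71.6% of members were lower from 6 h on, while in control culture the bars of both directions lie between 29.9% and 44.8% from 6 h on.

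The calls in both cultures were set side by side for each member. Since every member was chosen for lower IL-15 than control sums, the counts below are largely fixed by the choice. The same split was not made over all genes tested, so these counts are not read as particular to the members. At 24 h all 28 members that were lower in control culture than at 0 h were also lower with IL-15. Of the 16 members called in neither direction in control culture, 15 were lower with IL-15 and 1 was called in neither direction. Of the 23 that were higher in control culture, 7 were also higher with IL-15, 12 were called in neither direction and 4 were lower.

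The 3 classes are described by their levels over time. The 28 members lower in control culture at 24 h began at a median of 50.7 CPM, the 16 in the middle at 22.5 CPM and the 23 higher ones at 8.75 CPM. In the class that control culture lowered, the median change from 0 h in log2(TMM-scaled CPM + 1) at 6 h was -1.18 with IL-15 and -0.46 in control, and at 48 h it was -1.66 with IL-15 and -0.95 in control. With IL-15 all 28 were below 0 h in 4 of 4 animals from 12 h on. In control 22, 28 and 26 of them were so at 12, 24 and 48 h. Members were chosen for lower IL-15 than control sums, so the count with IL-15 is largely fixed by the choice. Neither count was made over all genes. In the middle class the median at 24 h was -0.78 with IL-15 and 0.03 in control. In the class that control culture raised, the median with IL-15 stayed between -0.10 and 0.27 at all 5 times, against 0.68 to 0.84 in control. Its members were spread around that median, with the middle 50% between -0.25 and 0.61 at 12 h with IL-15. The classes were cut by the control call at 24 h, so their control values at that time are given by the cut. Of the 9 members under 5 CPM at 0 h, 7 were in the raised class and 2 in the middle one, so the level minimum also had a part in the low start and the rise of the raised class. Its other 16 members began at a median of 16.1 CPM and had medians between -0.11 and 0.12 with IL-15 and between 0.55 and 0.70 in control.

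**Figure D3:**
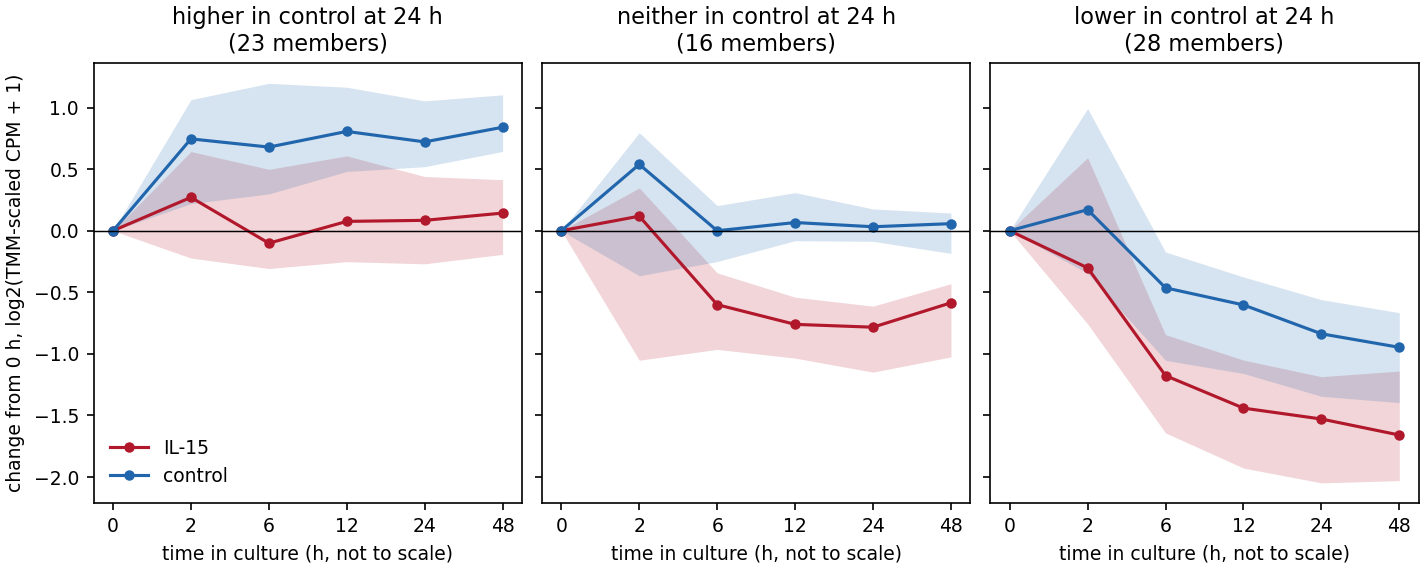
Lines give the median change from 0 h over the members of a class, in log2(TMM-scaled CPM + 1), with IL-15 in red and in control in blue. Bands span the middle 50% of members, and times are evenly spaced. Red lies below blue at each time in each class, as the rule requires, and at 24 h the red medians are 0.08, -0.78 and -1.53 from the left panel to the right.

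Some members had a brief peak at 2 h. In control culture 7 of the 67, against 1.70% of all genes past the level minimum, were at least 2-fold higher at 2 h than at 0 h and than at 6 h. The steepest of them was at 3.66 CPM at 0 h. At 2 h it stood at 91.5 CPM with IL-15 and 113.3 CPM in control, and at 6 h at 4.29 CPM with IL-15 and 7.28 CPM in control. A second was at 36 CPM with IL-15 and 44.1 CPM in control at 2 h, against 4.32 CPM at 0 h. Both examples were under 5 CPM at 0 h, and 1 of the 7 reached that minimum in control at 2 h alone, so the filter had a part in their choice. Of the 58 members that met the minimum at 0 h, 5 had the peak, against 1.37% of such genes. With IL-15 all 7 were also called higher at 2 h than at 0 h (edgeR, adjusted p under 0.05), against 25% of all genes tested. They were chosen for a high control at 2 h, so their rise in control is not a separate result. Their differences with IL-15 at 2 h were -0.31 to -0.66, so the calls with IL-15 largely follow from the same choice. At 48 h in control 17 members were at least 2-fold higher than at 0 h, against 18.7% of all genes past the minimum, and 10 at least 2-fold lower, against 6.37%. These shapes, the peak at 2 h included, are in plain CPM for members and all genes alike. Plain CPM placed the median of all genes past the minimum in control at 48 h at 0.33 against 0 h. The shapes use the same control sums as the rule, and their difference from other genes was not tested.

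The member with the highest mean control level among those raised by control culture at 24 h was ENSMFAG00000036873. It was picked among members called higher there than at 0 h, so its call in control at 24 h is given by the choice. At 0 h it had 94.8 CPM in 38142, 96.4 in 38147, 142 in 38155 and 111.7 in 38157. At 2 h it had 299, 252, 452 and 289 CPM with IL-15, against 354, 323, 618 and 343 CPM in control, in the same order of animals. Every culture at 2 h was thus above every sample before culture, and animal 38155 was highest in each group. At 24 h it had 150, 110, 169 and 110 CPM with IL-15, against 167, 161, 262 and 188 CPM in control. Each animal was lower with IL-15 at each time, while the groups overlapped at each time. Animal 38155 with IL-15 stood above the lowest control each time, and at 6 h so did 38142. Against 0 h the log2 fold change at 2 h was 1.54 ± 0.10 with IL-15 (SE, edgeR adjusted p = 5.9e-15) and 1.91 ± 0.11 in control (adjusted p = 2.3e-17). At 24 h it was 0.11 ± 0.10 with IL-15 (adjusted p = 0.354) and 0.46 ± 0.10 in control (adjusted p = 0.00025). With IL-15 the gene was still higher than at 0 h at 12 h (0.34 ± 0.10, adjusted p = 0.0056), a call that was lost without animal 38142 (adjusted p = 0.143) or 38155 (adjusted p = 0.0685).

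The most abundant member, ENSMFAG00000033011, was lowered by control culture and had the second lowest mean difference with IL-15. It was picked among members called lower in control at 24 h than at 0 h, so that call is given by the choice. At 0 h it had 1142 CPM in 38142, 1477 in 38147, 178 in 38155 and 3094 in 38157. The animals thus differed by more than 10-fold before culture, and 38155 was lowest and 38157 highest in every group. At 2 h it had 2351, 1866, 477 and 4042 CPM with IL-15, against 2887, 2846, 560 and 5779 CPM in control. At 12 h it had 384, 187, 12.7 and 940 CPM with IL-15, against 1759, 954, 82 and 3594 CPM in control. At 24 h it had 13, 20.5, 8.80 and 114.7 CPM with IL-15, against 362, 522, 51.4 and 1121 CPM in control. The groups overlapped at each time through the differences between animals, and all 20 differences within animals were below 0. Against 0 h the log2 fold change at 24 h was -5.44 ± 0.54 with IL-15 (SE, edgeR adjusted p = 2.8e-10) and -1.92 ± 0.46 in control (adjusted p = 0.00066). At 48 h it was -5.51 ± 0.54 with IL-15 (adjusted p = 1.8e-10) and -3.69 ± 0.49 in control (adjusted p = 1.2e-07). The gap to control was therefore narrower at 48 h than at 24 h, a difference of -1.88 in log2(CPM + 1) against -3.75, with control cultures down to 107.2 ± 69.7 CPM (SD, n = 4 animals). The gene was also higher in control at 2 h than at 0 h (1.27 ± 0.45, adjusted p = 0.017), a call that was lost without animal 38142, 38147 or 38157 (adjusted p of 0.0584, 0.0536 and 0.0588).

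**Figure D4:**
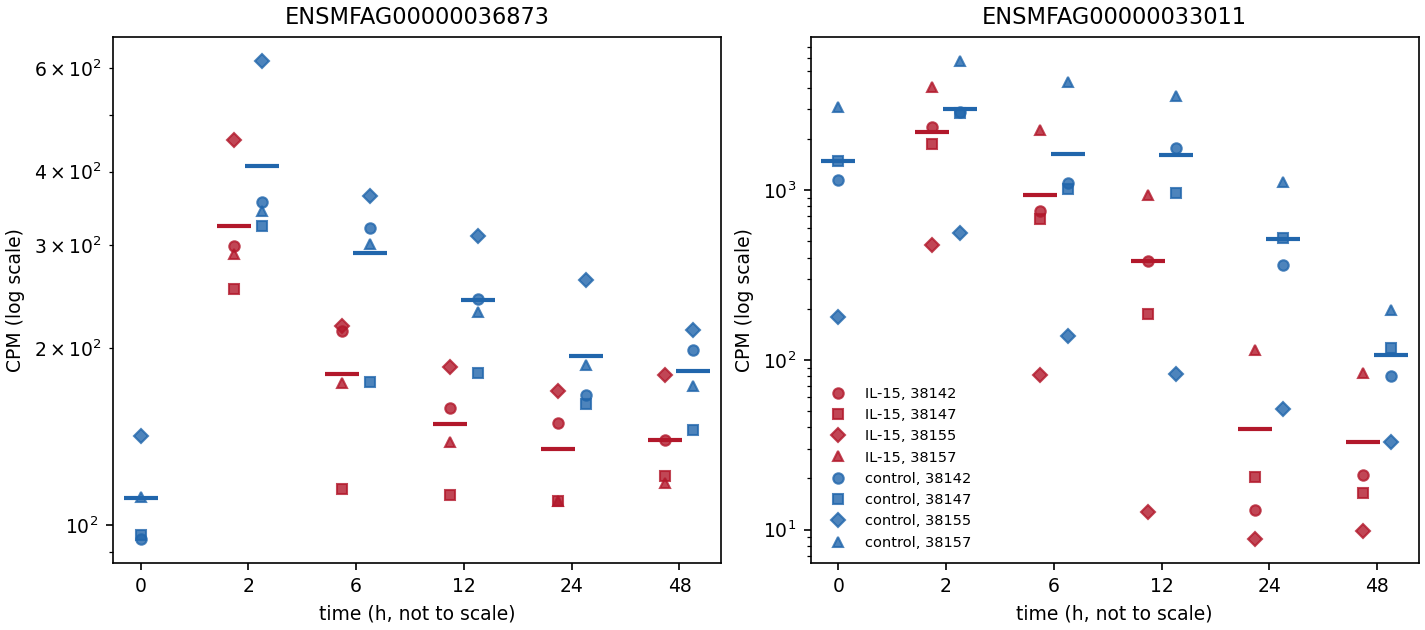
CPM on a log scale against time for both named members, with 1 symbol per animal, IL-15 in red to the left of control in blue, and horizontal bars at the mean of 4 animals. At 24 h ENSMFAG00000036873 spans 110 to 169 CPM with IL-15 and 161 to 262 CPM in control, and ENSMFAG00000033011 spans 8.80 to 114.7 CPM with IL-15 and 51.4 to 1121 CPM in control.

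The members of rank 3 and rank 4 by mean difference lay at the extremes of starting level. That of rank 3 was a gene of very low level before culture, with 1.45, 0.820, 0.871 and 0.767 CPM at 0 h in 38142, 38147, 38155 and 38157. At 12 h it had 3.96, 2.45, 2.43 and 2.52 CPM with IL-15, against 17, 10.2, 19.5 and 13.6 CPM in control. The groups did not overlap at this or any other time. At 6 h they nearly met, at 4.75 CPM with IL-15 and 4.77 CPM in control. The rule used this contrast and the share of all genes without overlap was not computed, so nothing is read from it. At 2 h the gene was lower with IL-15 than at 0 h (log2 fold change -1.39 ± 0.21, SE, edgeR adjusted p = 6.2e-07), while control missed the threshold (-0.28 ± 0.20, adjusted p = 0.247). Levels were very low then, with means of 0.359 CPM with IL-15 and 0.744 CPM in control and lowest counts of 19 and 40. The call of IL-15 against control at 2 h, a contrast the rule used, was lost without animal 38157 (edgeR adjusted p = 0.0764). At 12 h the gene was above 0 h in both cultures, by 1.48 ± 0.19 with IL-15 (adjusted p = 2.1e-08) and by 3.71 ± 0.20 in control (adjusted p = 2.3e-17). It was under 5 CPM at 0 h and passed the level minimum only through later control groups, the highest of them at 12 h. Its rise in control was thus required by the filter, and these calls give no support to a rise in culture.

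The member of rank 4 had the highest level of all members before culture and lost most of it within 2 h in both cultures. At 0 h it had 1214, 3151, 1643 and 1329 CPM in 38142, 38147, 38155 and 38157. At 2 h it had 27.8, 95.4, 68.1 and 30.4 CPM with IL-15, against 47.1, 127.7, 90.6 and 49.5 CPM in control. Every culture was thus far below every sample before culture, while the cultures with IL-15 and control overlapped. Against 0 h the log2 fold change at 2 h was -4.96 ± 0.52 with IL-15 (SE, edgeR adjusted p = 9.6e-10) and -4.42 ± 0.51 in control (adjusted p = 6.4e-09). At 24 h it had 11.1, 37.8, 5.18 and 27.1 CPM with IL-15, against 105.4, 117.2, 39.4 and 144 CPM in control. Here the groups did not overlap, though 37.8 CPM with IL-15 was close to 39.4 CPM in control. The rule used this contrast, so nothing is read from the lack of overlap. At 48 h the gene had 15.4, 33, 8.08 and 36.1 CPM with IL-15, against 25.2, 35, 19.2 and 38.2 CPM in control. The difference narrowed to -0.50 in log2(CPM + 1) at that time, where control was lower as well.

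Genes were then chosen by the same rule on 3 animals and read in the animal left out, whose values had no part in the choice. The rule found 61 genes without 38142, 75 without 38147, 84 without 38155 and 75 without 38157. In the animal left out, 57 of 61 (93.4%), 67 of 75 (89.3%), 63 of 84 (75%) and 68 of 75 (90.7%) of these genes were lower with IL-15 than in control at all 5 times. Among all genes past the level minimum 18.8%, 15.3%, 17.3% and 15.9% were. The full threshold of -0.3 at all 5 times was met by 35, 39, 30 and 29 of them, against 1.26%, 0.693%, 0.963% and 0.833% of all genes past the minimum. The share was lowest in 38155, whose median difference at 2 h was -0.23, against -0.31 to -0.38 in the other animals when left out.

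The position against 0 h also held in the animal left out. At 24 h 80.3%, 82.7%, 83.3% and 84% of the chosen genes were below their 0 h level with IL-15 in 38142, 38147, 38155 and 38157, against 45.1%, 46.3%, 48.0% and 47.4% of all genes past the level minimum. At 6 h the shares were 78.7%, 80%, 86.9% and 78.7%, against 46.4%, 45.9%, 46.9% and 48.1%. At 2 h they were 50.8%, 53.3%, 47.6% and 50.7%, against 47.2%, 48.2%, 51.6% and 50%, so the chosen genes did not stand apart then. In control culture at 24 h 49.2%, 45.3%, 35.7% and 45.3% of the chosen genes were above 0 h, against 54.6%, 53.1%, 46.98% and 47.4% of all. At 2 h 65.6%, 60%, 60.7% and 69.3% were above 0 h in control, against 52.5%, 49.9%, 46.4% and 50.5% of all.

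**Figure D5:**
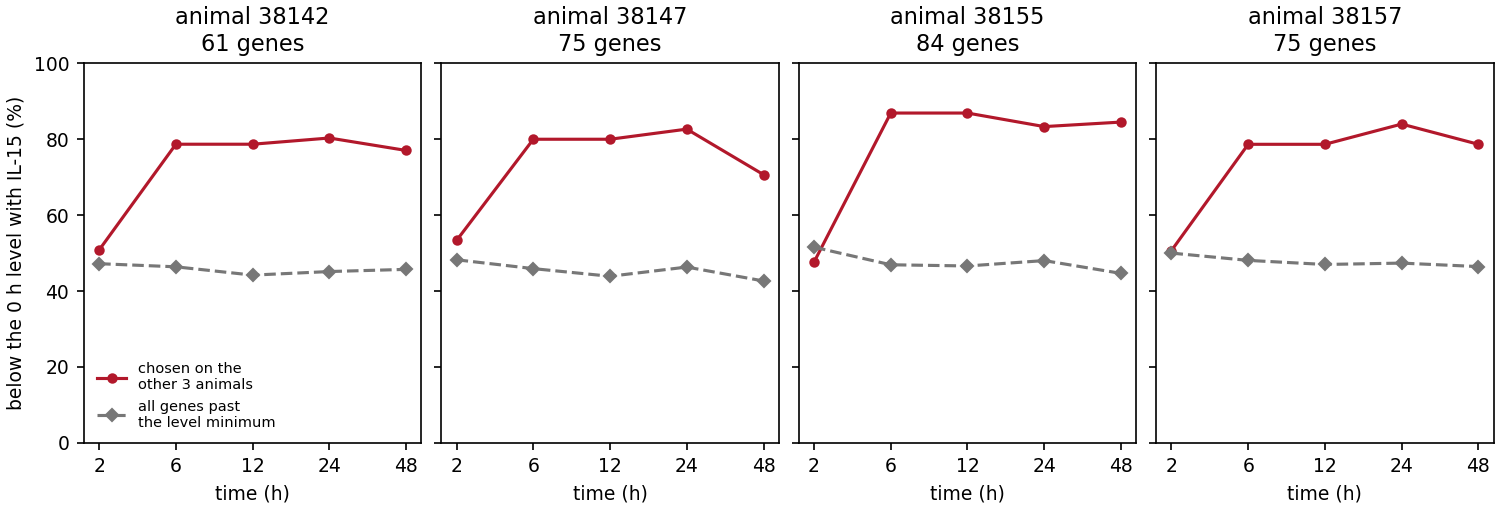
For each animal, the percentage of genes whose level with IL-15 was below that animal's own 0 h level, for genes chosen by the rule on the other 3 animals (red) and all genes past the level minimum (grey). Red lies between 70.7% and 86.9% from 6 h on, and near grey at 2 h.

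Females and males were compared in the effect averaged over the 5 times, with 2 animals of each sex. No member was called different between the sexes (limma, adjusted p under 0.05, lowest member adjusted p = 0.237), and 3 of 18197 genes did, or 0.0165%. At an unadjusted p under 0.05, 9 members passed, against 8.09% of all genes, and 7 in edgeR's interaction of sex and treatment, against 8.03%. That interaction called 0 members. The members' median averaged effect was -0.78 in females and -0.65 in males (log2), and 50 of 67 were lower in females than in males. The median difference, females minus males, was -0.08 over the members and -0.0007 over all genes tested. All members were read in the same 2 animals of each sex, so they are not replicates. The count of 50 is a description and not a test of sex. With so few animals sex cannot be told apart from other differences between them.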

How the data were processed

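The authors deposited whole-number counts per gene, not normalized, for 132 libraries, in a table with cynomolgus gene IDs (used here) and a table with rhesus gene IDs (an alternative). RNA was isolated with a Qiagen column kit and mRNA libraries were made with KAPA mRNA HyperPrep, per the labels' protocols. Aligner, counter, build and strand setting were not given in the sources used here. No label says whether the 3 numbered libraries came from separate cultures, so they were summed and the animal is the replicate. Counts of amplified reads are not independent molecules, and counting error understates the spread. Columns matched to no sample numbered 0.

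The members and lists were chosen with earlier results of these data known. edgeR 4.0.16 (R 4.3.3) was fitted to the 44 sums with TMM, filterByExpr, a term for the animal and robust estimation, with Benjamini-Hochberg adjustment over 18197 genes. All 67 members passed that filter. limma 3.58.1 compared the sexes, and DESeq2 1.42.0 was an alternative. The edgeR fit was also run on simulated counts that held no differences between animals, and the limma fit on simulated effects. Nothing is read from these runs. The animals pair the groups, as the labels give the same animals throughout. Deviations from the group means correlated above 0.1 in 20 of 20 same-animal pairs (lowest r 0.43). Gene lists and cell type markers need symbols and could not be run. The IDs named are the members with the highest mean control CPM among those called higher, and among those called lower, in control culture at 24 h than at 0 h. The members of rank 3 and rank 4 by mean difference were added after their values were seen.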

Additional observations from a re-analysis of the deposited data

Results flagged for a closer look

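For the members shown by animal and the per-animal medians, 59 groups of 4 animals were checked for an animal far from the other 3, and 6 held one. Chance flags about 1 group in 20. ENSMFAG00000036873 was at 617.7 CPM in animal 38155 in control at 2 h, where the other animals lay between 323 and 354 CPM. ENSMFAG00000033011 was at 114.7 CPM in animal 38157 with IL-15 at 24 h, against 8.80 to 20.5 CPM in the others, and at 83.6 CPM in the same animal with IL-15 at 48 h, against 9.79 to 21.1 CPM. Animal 38157 had the highest level of that gene in every group. The member of rank 3 by mean difference was highest in animal 38142, at 1.452 CPM at 0 h (others 0.767 to 0.871 CPM), 3.964 CPM with IL-15 at 12 h (others 2.43 to 2.52 CPM) and 2.323 CPM with IL-15 at 48 h (others 1.45 to 1.55 CPM).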

How the results depend on the processing

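The rule gave 54 to 80 genes under other pseudocounts, scalings, level minimums and averages, 61 to 84 with 1 animal left out and 66 in the rhesus table. With a pseudocount of 2, 54 of the members remained, with TMM scaling 59 were among 77 genes, and with the median over animals 54 were among 70. Of 266 alternative values of counts, 250 stayed within 1.5 times the value reported. Without the paired design (no replicate block, the animal term dropped) members higher in control culture than at 0 h were 13, 15, 13 and 16 from 6 to 48 h, members higher with IL-15 than at 0 h at 48 h were 4, and members lower with IL-15 than control were 2, 20, 34, 37 and 31 in time order. Single libraries with a replicate block of animal by library number count the 3 libraries of an animal as replicates. In that fit 55 members were lower with IL-15 than control at 2 h. With 1 animal left out that count was 11 to 17, and 5 to 7 members were higher with IL-15 than at 0 h at 48 h. Shares of all genes called in these alternative fits are not given here, so nothing particular to the members is read from these moves. Among 600 alternative values of the 4 members shown, 33 no longer passed the threshold and 5 newly passed it. No count reversed, and no called value of these members changed sign. The members' median change with IL-15 against 0 h at 2 h, 0.06 as reported, was -0.02 without animal 38157, and that in control at 48 h, 0.01 as reported, was -0.12 without 38142, so medians this near 0 have no firm sign. The causes of these moves were not tested. Precision rests on 4 animals, and every member had at least 13 counts in every sum.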
